A study of Homo sapiens with 6 samples.

Results

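Bone morphogenetic proteins (BMPs) are secreted ligands that act through paired receptor kinases, which phosphorylate SMAD1, SMAD5 and SMAD9. These SMADs enter the nucleus with SMAD4 and drive a short list of direct targets, among them the ID genes and the inhibitory SMADs, which feed back on the pathway. In the developing tooth and palate, BMP4, the homeodomain factor MSX1 and the transcription factor PAX9 are known to work together. The 10 genes described here are the ligands BMP2, BMP4 and BMP7, the targets ID1, ID2 and ID3, the inhibitory SMADs SMAD6 and SMAD7, and the homeodomain factors MSX1 and MSX2. The rule finds them by symbol and uses no measured value, although the set was proposed with earlier results of these data known. Each of the 10 matched exactly 1 row among the 26822 gene symbols of the deposited table.

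RNA-seq was performed on MCF10A cells, an established non-tumorigenic line of human breast epithelial cells, grown with horse serum, epidermal growth factor, hydrocortisone, cholera toxin and insulin. Of the 6 samples, 3 received a non-targeting siRNA (siNT) and 3 received siRNAs against PAX9 (siPAX9), each at 30 nM for 72 hours, so both groups were transfected. The authors deposited 1 pooled FPKM, a read level corrected for transcript length and library size, per group for each of 41656 loci. The spread between samples and the number of reads behind each value are therefore unknown, no difference below carries an error or a test, and every value below is the authors' pooled FPKM. All samples were of a single cell line. In such bulk samples, fewer cells that express a gene and less RNA of it per cell cannot be told apart.

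The targeted gene, PAX9, was at 2.80 FPKM in siNT and 0.325 FPKM in siPAX9, a log2 change of -3.10. It reached 1 FPKM in siNT alone, so it could only be counted as lower. With 1 added to each FPKM its log2 change was -1.52. Its locus in the deposited table runs from 37126773 to 37642998 on chromosome 14. Over the 13622 genes that reached 1 FPKM in either group or both, the median log2 change was -0.07. Of these genes, 7.75% were at least 2-fold higher in siPAX9 and 7.22% were at least 2-fold lower. The basal epithelial markers KRT5, KRT14, KRT17, KRT6A and TP63 were all above an FPKM of 25 in both groups, and their summed FPKM was 3711 in siNT and 4921 in siPAX9. KRT6A alone of these was past 2-fold, at 368 and 959. The epithelial markers CDH1, EPCAM, KRT8 and KRT18 summed to 343 and 319. Within this list CDH1 was higher in siPAX9 (45.3 and 124) and EPCAM was lower (34.3 and 16.7), both past 2-fold. The luminal hormone markers ESR1, PGR and GATA3 summed to 6.25 and 7.88, nearly all of it GATA3. The 4 mesenchymal markers summed to 0.538 in siNT and 4.21 in siPAX9, nearly all of it COL1A1 (0.454 and 4.13), while COL1A2 was listed at 0 in siNT and at 0.00337 in siPAX9. The 3 endothelial markers summed to 3.38 and 2.45, of which PECAM1 was lower in siPAX9 (2.58 and 0.495), KDR was higher (0.798 and 1.94), and CDH5 was listed at 0 in siNT and at 0.00938 in siPAX9. The 3 immune markers summed to 3.40 and 3.86, nearly all of it CD68, with CD3E listed at 0 in both groups. The 3 neural crest markers summed to 0.0246 and 0.0344, with FOXD3 and TFAP2B listed at 0 in both. The part of these markers in the results below was not tested.

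In siPAX9, BMP2, all 3 ID genes and SMAD6 were more than 2-fold higher than in siNT, whereas SMAD7, MSX1 and MSX2 lay within 2-fold. Of the 10 genes, 8 reached an FPKM of 1 in at least 1 group, and BMP4 and BMP7 did not. Of these 8, 5 were at least 2-fold higher, beside 7.75% of all genes, and 0 were at least 2-fold lower, beside 7.22%. Of the 5 genes that were higher, BMP2, ID2 and SMAD6 reached this level in siPAX9 alone, so they could only enter by being higher there. Of the 5 members at 1 FPKM or more in both groups, ID1 and ID3, 2 of 5, were at least 2-fold higher and 0 were lower, beside 4.4% and 5.84% of the 12557 such genes. This stricter filter leaves out genes that were low in either group. When a mean FPKM of at least 1 was required instead, SMAD6 dropped out and 4 members were higher and 0 lower, beside 6.82% and 6.9% of all genes. With no filter, BMP7 entered through its value of 0 in siNT, for which no fold can be given, and 6 members were higher and 0 lower, beside 18.6% and 10.7%.

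**Figure D1:**
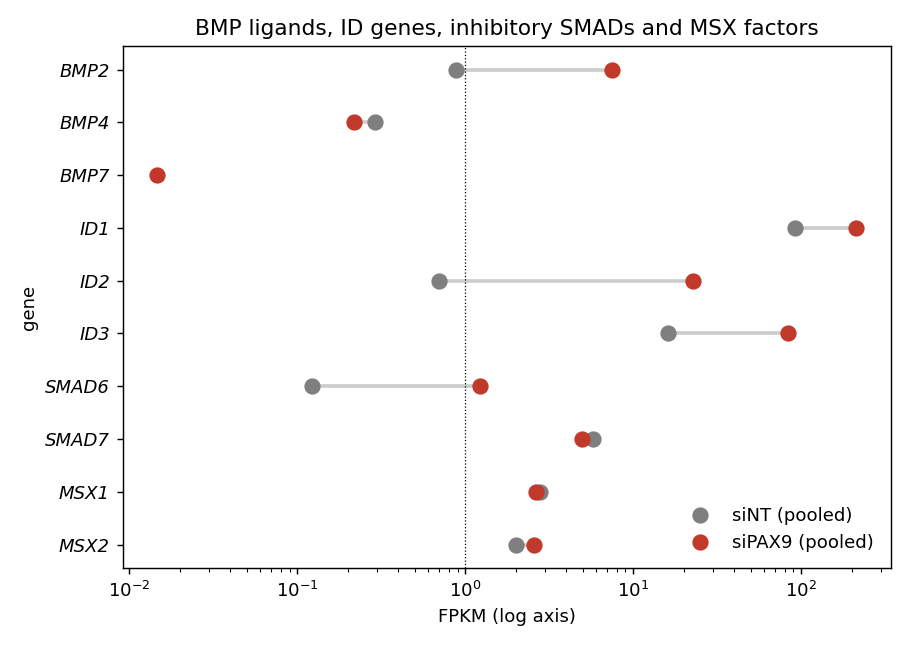
FPKM of the 10 genes in siNT (grey) and siPAX9 (red) on a log axis, 1 pooled value per group, with the dotted line at an FPKM of 1. BMP2, ID1, ID2, ID3 and SMAD6 sit to the right in siPAX9, the points of SMAD7, MSX1 and MSX2 nearly coincide, and BMP7 has no grey point because it was listed at 0 in siNT.

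Where each gene stands among all genes was also examined. ID2 had the largest change of the members, and 137 of the 13622 genes had a larger increase. The larger increases numbered 219 for SMAD6, 249 for BMP2, 337 for ID3 and 845 for ID1. MSX1 stood near the middle, with 50.8% of the genes above it. SMAD7 had 61.4% of the genes above it and MSX2 had 23.1%. The median log2 change of the 8 members that reached an FPKM of 1 was 1.79, with 3 of them entering through siPAX9 alone. It was 1.09 with 1 added to each FPKM and 2.38 over the members that reached 5 FPKM in either group, of which BMP2 and ID2 did so in siPAX9 alone. Over the 5 members at 1 FPKM or more in both groups it was 0.34, beside -0.08 for all such genes. Over the 9 members with an FPKM above 0 in both groups, which include BMP4, it was 1.20, beside 0.0065 for the 18462 genes of this kind. Subtracting the median of all genes left MSX1 at -0.01, SMAD7 at -0.14 and MSX2 at 0.41.

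**Figure D2:**
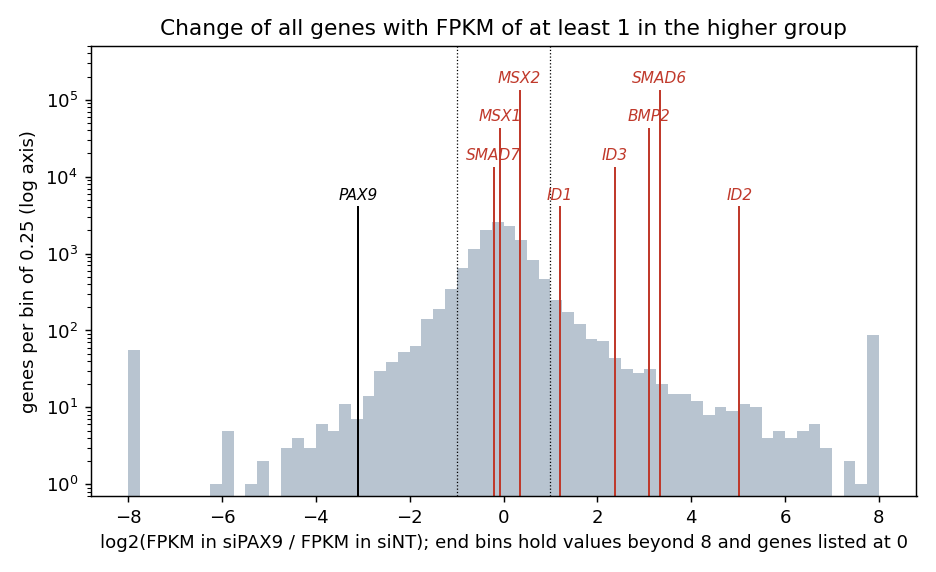
Number of genes per bin of log2 change (FPKM in siPAX9 over siNT), on a log axis, for the 13622 genes that reached 1 FPKM in either group or both, with dotted lines at 2-fold. The 8 members are marked in red and PAX9 in black. BMP2, ID2, ID3 and SMAD6 lie in the sparse right tail, ID1 lies just past 2-fold, and MSX1, MSX2 and SMAD7 lie in the central peak.

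The promoters of ID1, ID2, ID3 and SMAD6 are shown because these targets were higher together, and because the SMAD sites of such genes are a textbook feature of the BMP response. The sequences are the 250 bases before the start site in RefSeq (GRCh38.p14), written 5′ to 3′ on the gene's strand. Each was placed by exact match on GRCh37, which shares the coordinates of the hg19 build used by the authors. Capitals mark GGCGCC and GGAGCC, the GC-rich SMAD element, GTCTG, the SMAD binding element, and GTCT directly followed by AGAC, its palindromic form, on either strand.
ID1 (chr20:30192842-30193091, + strand): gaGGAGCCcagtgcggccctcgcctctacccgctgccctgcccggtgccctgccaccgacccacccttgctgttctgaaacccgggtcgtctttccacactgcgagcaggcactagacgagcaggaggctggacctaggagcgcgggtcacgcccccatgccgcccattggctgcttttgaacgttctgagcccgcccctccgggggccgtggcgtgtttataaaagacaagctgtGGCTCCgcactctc
ID2 (chr2:8821936-8822185, + strand): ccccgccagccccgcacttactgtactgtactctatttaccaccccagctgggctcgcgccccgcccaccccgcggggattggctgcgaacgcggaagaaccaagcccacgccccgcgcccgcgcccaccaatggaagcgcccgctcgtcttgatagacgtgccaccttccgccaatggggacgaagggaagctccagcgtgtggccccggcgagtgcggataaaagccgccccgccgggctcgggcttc
ID3 (chr1:23885993-23886242, - strand): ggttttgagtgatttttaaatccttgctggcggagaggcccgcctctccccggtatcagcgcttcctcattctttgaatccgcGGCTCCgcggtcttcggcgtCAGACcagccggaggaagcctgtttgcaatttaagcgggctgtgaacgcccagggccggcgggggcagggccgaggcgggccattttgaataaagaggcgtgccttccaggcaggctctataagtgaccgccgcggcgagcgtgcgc
SMAD6 (chr15:66994324-66994573, + strand): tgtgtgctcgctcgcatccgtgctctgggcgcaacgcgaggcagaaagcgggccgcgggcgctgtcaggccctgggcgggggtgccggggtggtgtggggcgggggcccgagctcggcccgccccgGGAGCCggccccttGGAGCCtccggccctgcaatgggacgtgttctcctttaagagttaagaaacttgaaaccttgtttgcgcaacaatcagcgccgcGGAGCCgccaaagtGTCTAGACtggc

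RefSeq promoters were found for 8 of the 10 genes, and BMP2 and BMP7 were not matched. In the window of the first-listed promoter, GGAGCC occurred 2 times at ID1, 1 time at ID3, 3 times at SMAD6 and 1 time at MSX1, and it was present in 30.6% of the 35116 promoters in the table. GTCTG occurred 1 time at ID3, 2 times at SMAD7 and 1 time at BMP4, against 38.0% of all promoters. GGCGCC occurred in the BMP4 window alone, against 16.4% of all promoters. The palindrome lay at SMAD6 and at no other member, and 0.182% of all promoters held it. Further promoters are listed for BMP4 and SMAD7, 3 each in all, and GGAGCC also lay in the last-listed promoter of both. GTCTG lay in a further promoter of each as well. In all, 6 of the 8 genes held GGAGCC in some promoter, and 4 held it in the first-listed promoter. The 30.6% is a share of single promoters, so it is no background for the count of 6. The palindrome was searched after the SMAD6 sequence had been seen. The ID2 window held none of these letters, and ID2 had the largest change. These letters were found both in genes that were higher and in genes that were not. The windows cover only the 250 bases before each start site, and the part of these letters in the changes was not tested. The ID3 window and the last bases of the ID1 and ID2 windows lie inside the locus that the deposited table gives for the gene.

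Among the ligands, BMP2 was the one that reached an FPKM of 1. BMP2 (chromosome 20, 6748745 to 6760925 on hg19), a potent inducer of bone, was at 0.876 FPKM in siNT and 7.51 FPKM in siPAX9, which is 8.57-fold higher (log2 change 3.10). BMP4 (chromosome 14, 54416455 to 54423580), the ligand that acts with PAX9 and MSX1 in the tooth bud, was at 0.289 FPKM in siNT and 0.217 FPKM in siPAX9. BMP7 (chromosome 20, 55743809 to 55841707), which acts in kidney and eye development, was listed at 0 in siNT and at 0.0147 in siPAX9. The deposited table marks BMP4 and BMP7 as not tested, both lay below 1 FPKM in both groups, and neither entered the main counts. On the FPKM scale, which is per length, BMP2 exceeded BMP4 3.03-fold in siNT and 34.6-fold in siPAX9. None of the 11 other BMP and GDF ligands examined reached an FPKM of 1 in either group. BMP8A was the highest of them, at 0.478 and 0.726, and BMP10, BMP15, GDF2 and GDF6 were listed at 0 in both groups.

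The receptors of these ligands were present and lay within 2-fold. BMPR1A, a type I receptor, was at 12.0 FPKM in siNT and 10.4 FPKM in siPAX9, a log2 change of -0.20. BMPR2, the type II receptor, had 9.41 and 14.3, a log2 change of 0.60. ACVR1, another type I receptor, had 7.97 and 7.52. The 6 receptor genes that reached an FPKM of 1 ranged from a log2 change of -0.77 (BMPR1B) to 0.60 (BMPR2), none was past 2-fold, beside 7.75% of all genes higher and 7.22% lower, and ACVRL1, the endothelial receptor, was listed at 0 in both groups. At a fold threshold of 1.5, 1 receptor was higher and 2 were lower, beside 2012 and 2319 of all 13622 genes. The summed FPKM of the 7 receptor genes was 40.1 in siNT and 39.8 in siPAX9. Among the coreceptors, RGMA, a membrane-bound BMP coreceptor, was 4.58 in siNT and 2.18 in siPAX9 (log2 change -1.07). ENG, RGMB and NEO1 were lower but within 2-fold, at -0.86, -0.55 and -0.90, and BAMBI, a decoy receptor, was at 0.27.

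Of the 16 secreted antagonists and binding proteins, 6 reached an FPKM of 1. Of these, 1 was at least 2-fold higher and 1 lower, beside 7.75% and 7.22% of all genes. FSTL3, which binds activins and some BMPs, was higher in siPAX9, at 53.0 against 22.8 (log2 change 1.22). TWSG1, which binds BMPs together with chordin, was lower, at 10.5 against 22.4 (-1.09). NOG, which encodes the BMP antagonist noggin and is itself induced by BMPs in many cells, was 1.18 in siNT and 2.05 in siPAX9 (0.80). FST and FSTL1 were lower but within 2-fold, at -0.90 and -0.73. NBL1, the most abundant of the list, was 160.7 in siNT and 128.6 in siPAX9 (-0.32), and its row also carries MINOS1. The median log2 change of the 6 was -0.53. KCP, a chordin-like modulator, stayed below 1 but was 0.111 in siNT and 0.792 in siPAX9. CHRDL2, another chordin-like protein, was 0.0852 and 0.0183. CHRD, CHRDL1, GREM1, SOST and CER1 were listed at 0 in both groups. Among 6 proteases that process ligands or antagonists, PCSK6 was lower, at 5.80 against 11.9 (-1.04), and FURIN and BMP1 were within 2-fold. PCSK5, a related protease, stayed below 1, at 0.583 and 0.189. The PCSK6 locus also carries LOC100507472.

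The SMADs that carry the signal were within 2-fold. SMAD5 was at 33.5 FPKM in siNT and 33.8 FPKM in siPAX9, SMAD1 had 16.7 and 12.0, and SMAD4, the shared partner, had 11.6 and 10.4. The summed FPKM of SMAD1, SMAD5 and SMAD9 was 52.3 in siNT and 47.6 in siPAX9. Of the 9 SMADs and modulators, 1 was at least 2-fold higher and 0 were lower, beside 7.75% and 7.22% of all genes. The higher gene was SKIL, a SMAD corepressor, at 4.38 and 9.10 (log2 change 1.06). With 1 added to each FPKM, SKIL was within 2-fold.

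The 3 ID genes encode helix-loop-helix proteins without a DNA-binding region, which bind E proteins and keep them from DNA. ID1 (chromosome 20, 30193086 to 30194317) was the most abundant of the 10 genes in both groups, with 91.9 FPKM in siNT and 211 FPKM in siPAX9. This is 2.30-fold higher, a log2 change of 1.20. ID3 (chromosome 1, 23884421 to 23886285) had 16.1 and 83.9, which is 5.20-fold higher (log2 change 2.38). ID2 (chromosome 2, 8822113 to 8824583) had 0.697 and 22.7, which is 32.5-fold higher (log2 change 5.02). The order of levels was ID1, ID3, ID2 in both groups, and the gene with the lowest level had the largest fold difference. In absolute terms the order was the reverse, since ID1 gained 119 FPKM, ID3 67.7 and ID2 22.0. The value of ID2 carries some uncertainty, since the pseudogene ID2B matched 405 of the 1299 bases of the ID2 transcript with 95.6% identity. ID2B was not among the gene symbols of the deposited table, and how reads from that stretch were placed is not known.

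Because FPKM is per length, the 3 genes can be summed. Their summed FPKM was 108.7 in siNT and 317.5 in siPAX9, a 2.92-fold difference. ID1 made up 84.5% of the sum in siNT and 66.4% in siPAX9, while ID3 went from 14.9% to 26.4% and ID2 from 0.641% to 7.14%. The E proteins that they bind, TCF3, TCF4 and TCF12, summed to 53.5 in siNT and 47.6 in siPAX9. None of the 3 was past 2-fold, beside 7.75% of all genes higher and 7.22% lower. The ratio of summed ID mRNA to summed E protein mRNA was 2.03 in siNT and 6.66 in siPAX9. The fourth family member, ID4, was listed at 0 in both groups.

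**Figure D3:**
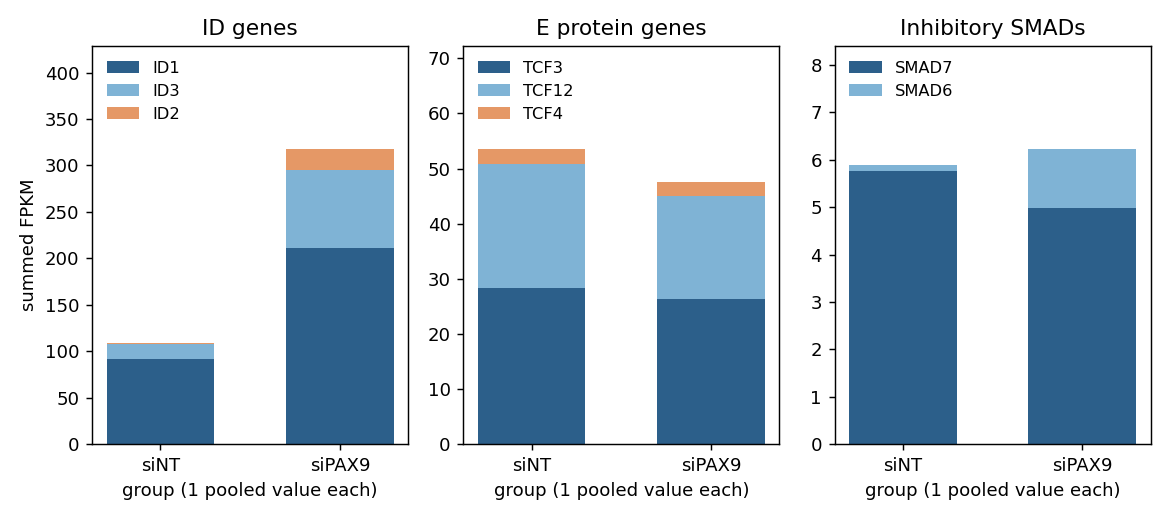
Stacked FPKM of the ID genes, of the E protein genes TCF3, TCF4 and TCF12, and of the inhibitory SMADs, with 1 pooled value per group and a separate linear axis in each panel. The ID bar is taller in siPAX9 (317.5 against 108.7) with larger shares of ID3 and ID2, the E protein bar is slightly shorter, and SMAD6 takes a larger part of an inhibitory SMAD bar of similar height.

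Both inhibitory SMADs block the pathway from inside the cell. SMAD6 acts mainly on BMP receptors and SMAD7 on both the BMP and the TGF-beta branch. SMAD6 (chromosome 15, 66994674 to 67074337) was at 0.123 FPKM in siNT and 1.23 FPKM in siPAX9, which is 10.0-fold higher (log2 change 3.33). It had the lowest level of the 5 genes that were higher, and with 1 added to each FPKM its log2 change was 0.99, just short of 2-fold. SMAD7 (chromosome 18, 46446223 to 46477081) had 5.77 and 4.99, a log2 change of -0.21. SMAD7 exceeded SMAD6 47.1-fold in siNT and 4.06-fold in siPAX9. Their summed FPKM was 5.89 in siNT and 6.22 in siPAX9.

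MSX1 and MSX2 encode related homeodomain repressors that act downstream of BMPs in tooth, palate and skull. MSX1 (chromosome 4, 4861392 to 4865660) was at 2.78 FPKM in siNT and 2.64 FPKM in siPAX9 (log2 change -0.07). MSX2 (chromosome 5, 174151575 to 174157902) had 2.01 and 2.55 (0.34). MSX1 was the more abundant in both groups, 1.38-fold in siNT and 1.03-fold in siPAX9. Both were within 2-fold under each alternative that kept them, with log2 changes of -0.07 to -0.01 for MSX1 and 0.24 to 0.41 for MSX2. The value of MSX2 is uncertain where reads were shared with the pseudogene MSX2P1, which matched 773 of the 2195 bases of its transcript with 92.1% identity. An annotated transcript of OR4D1, which was listed at 0 in both groups, matched 2188 of those bases with 90.9% identity. MSX2P1 itself was listed at 0.0508 in siNT and 0.0835 in siPAX9.

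Other genes known to respond to BMPs were mixed. ATOH8, a BMP-induced helix-loop-helix factor, was at 0.119 FPKM in siNT and 2.70 FPKM in siPAX9 (log2 change 4.50), so it reached 1 FPKM in siPAX9 alone and could only be counted as higher. RUNX2, the bone factor, was 1.73 in siNT and 0.603 in siPAX9 (-1.52), so it reached 1 FPKM in siNT alone, and with 1 added to each FPKM it was within 2-fold. TBX3 was within 2-fold (0.23), HEY1 stayed below 1 at 0.513 and 0.587, and HAMP was listed at 0 in both groups. Across all 105 genes of the lists set beside the members, 58 reached an FPKM of 1, 7 of these (12.1%) were at least 2-fold higher and 6 (10.3%) were at least 2-fold lower. For all genes these shares were 7.75% and 7.22%. The median log2 change of the 58 was -0.15.

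Of the 24 homeobox genes and partners that act with PAX9, BMP4 and MSX1 in the face, 9 reached an FPKM of 1, and 4 of these were at least 2-fold higher and 1 lower, beside 7.75% and 7.22% of all genes. None of the 4 was counted when 5 FPKM was required in either group. BARX2 was 0.0591 in siNT and 1.96 in siPAX9 (log2 change 5.05), and DLX2, a regulator of jaw and tooth patterning, was 0.0845 and 2.04 (4.60). PRRX2 was 0.514 and 4.20 (3.03), and OSR1 was 0.354 and 1.40 (1.98). LEF1, the Wnt effector needed for tooth development, was lower, at 0.446 against 1.30 (-1.54). All 4 genes that were higher were below 1 in siNT, so they entered through siPAX9 alone, and LEF1 entered through siNT alone. With 1 added to each FPKM, OSR1 and LEF1 were within 2-fold. PITX1, by far the most abundant of the list, was 33.8 and 36.3 (0.10). DLX5, LHX8, PRRX1, OSR2, PAX1 and MEOX2 were listed at 0 in both groups.

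**Figure D4:**
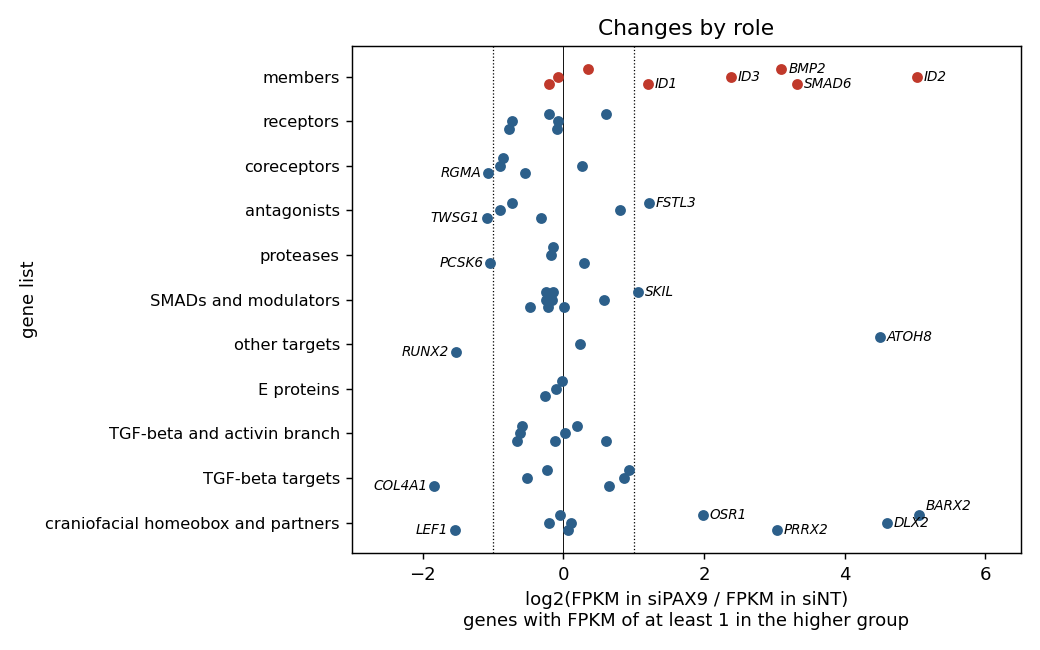
Log2 change (FPKM in siPAX9 over siNT) of each gene that reached 1 FPKM in either group, 1 point per gene, by list, with members in red, dotted lines at 2-fold and names for genes past 2-fold. BMP2, ID1, ID2, ID3, SMAD6, FSTL3, SKIL, ATOH8, BARX2, DLX2, PRRX2 and OSR1 lie to the right of the 2-fold lines and RGMA, TWSG1, PCSK6, RUNX2, COL4A1 and LEF1 to the left, while the receptors and E proteins lie within 2-fold, as do the SMADs and modulators apart from SKIL.

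The loci within 50 kb of each ID gene were then examined, a window chosen after the data had been seen. The named protein-coding neighbours were within 2-fold or listed at 0. HM13 near ID1 was 65.2 in siNT and 56.7 in siPAX9, KIDINS220 near ID2 was 13.1 and 14.6, and E2F2 near ID3 was 0.629 and 0.750. COX4I2 near ID1 was listed at 0 in both groups. ID2-AS1, an antisense RNA whose locus ends 0.12 kb before the ID2 locus, was 0.218 in siNT and 0.656 in siPAX9. No use of read strand is stated for the counting, so reads of ID2-AS1 cannot be told apart from reads running upstream out of ID2.

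Of the loci without a gene symbol, 4 lay within the window upstream of ID1. Among the 11544 such loci in the table that reached 1 FPKM in either group or both, 27.4% were at least 2-fold higher in siPAX9 and 12.0% at least 2-fold lower. The first (chromosome 20, 30182959 to 30183334), with its nearer end 9.75 kb upstream, was 0.225 in siNT and 1.64 in siPAX9. The second (30183564 to 30183839), 9.25 kb upstream, was listed at 0 in siNT and at 6.03 in siPAX9. Both were past 2-fold. The third (30184801 to 30186032), 7.05 kb upstream, was 0.0883 and 0.838, below 1 FPKM in both groups. The last, 29.0 kb upstream, was 0.935 in siNT and 0.480 in siPAX9. A locus without a symbol 6.22 kb downstream of the ID3 start, beyond the end of the gene, was 0.358 and 1.67. Part of the locus 7.05 kb upstream also matched transcripts of other genes, such as PPP2R5C over 154 of its 1232 bases with 90.3% identity. Near MSX1, a 92-base locus without a symbol 33.9 kb downstream was 916 and 2351, and the one at 35.2 kb was 93.1 and 92.5. Near BMP4, 3 short loci without a symbol 34.1 to 34.9 kb upstream were at 384.5, 221 and 161 in siNT and at 319.5, 190.4 and 155.9 in siPAX9. The FPKM of such short loci is divided by few bases, so their levels cannot be set beside those of the genes.

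The locus 9.25 kb upstream of ID1 is shown because it was listed at 0 in siNT, read from GRCh37 on the + strand, with the single GTCTG in capitals. Of all 250-base promoter windows, 38.0% held GTCTG. The loci 9.75 and 29.0 kb upstream held none of the motifs searched, and the locus 7.05 kb upstream held GGAGCC 2 times.
ID1 upstream locus (chr20:30183564-30183839): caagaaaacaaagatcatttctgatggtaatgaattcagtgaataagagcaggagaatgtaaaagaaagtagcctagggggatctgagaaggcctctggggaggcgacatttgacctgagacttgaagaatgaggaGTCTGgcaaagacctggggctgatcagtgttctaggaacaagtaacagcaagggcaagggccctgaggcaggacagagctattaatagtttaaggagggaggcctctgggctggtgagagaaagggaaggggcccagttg

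**Figure D5:**
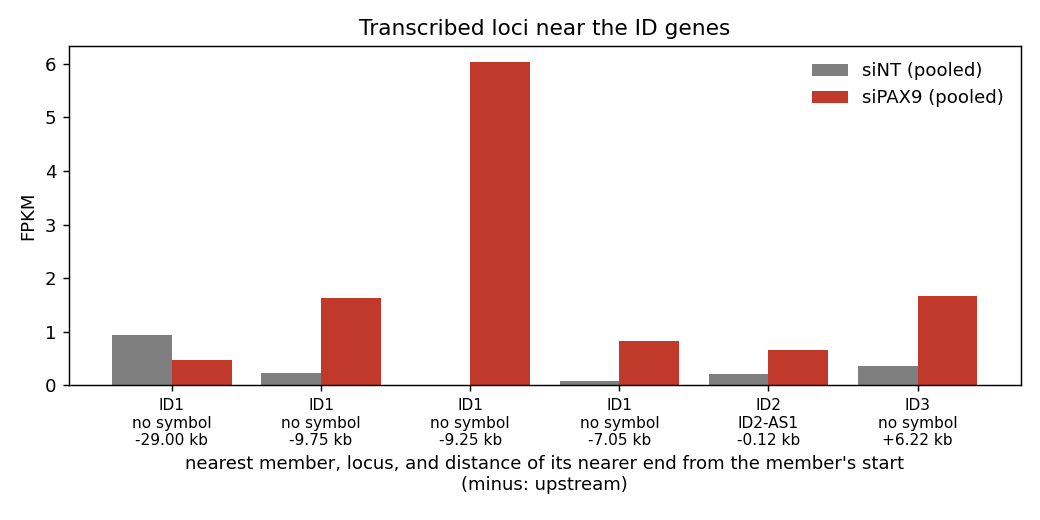
FPKM in siNT (grey) and siPAX9 (red) of the loci without a gene symbol within 50 kb of ID1, ID2 and ID3, and of ID2-AS1, with 1 pooled value per group. The tallest bar is the locus 9.25 kb upstream of ID1 (6.03 against 0). The loci 29.0 and 7.05 kb upstream of ID1 and ID2-AS1 stay below 1 FPKM in both groups, and 27.4% of all loci without a symbol that reached 1 FPKM were at least 2-fold higher.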

How the data were processed

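RNA was harvested from MCF10A cells 72 hours after transfection, and poly(A)+ libraries were sequenced as single-end reads. Per the labels and the methods, the authors used Bowtie 2 for alignment to hg19 and Cufflinks for quantification, in Partek Flow. The authors deposited 1 FPKM per locus and group, with the 3 samples of each group combined. The scaling between libraries is not given in the sources used here. The table also holds fold changes, p-values and q-values of the authors' own comparison, which were not used. It gives no reads per sample, so depth, error and replicate checks could not be computed.

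Each symbol was taken from its row of highest mean FPKM, rows being split at commas. The change was log2 of FPKM in siPAX9 over siNT with no pseudocount, and a gene was counted as higher or lower at 2-fold, if it reached 1 FPKM in either group. No statistical test was run. The members, gene lists and rules were chosen with earlier results of these data known. Genes named were the members, the list genes past 2-fold, the most abundant list genes, and others named for their role or for being listed at 0. Loci near the members were chosen with their values known, and the palindromic motif after the sequences had been read. The counting of fold calls was tested on simulated data with known folds. Promoters were searched as exact letters on both strands, and transcripts of GENCODE release 44 on GRCh37 were compared with blastn 2.17.0 (word size 28, at least 90% identity over at least 50 bases). Locus starts were converted to count from 1. Python 3.11.15, pandas 2.3.3, numpy 2.4.6 and matplotlib 3.10.9 were used. Alternatives were other fold thresholds, 0.1 or 1 added to each FPKM, other filters on low FPKM, centring, summed rows, only rows marked OK, and a wider promoter window.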

Additional observations from a re-analysis of the deposited data

How the results depend on the processing

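The count of members at least 2-fold higher was 5, and it was 2 to 6 under the alternatives. It was 2 when both groups had to reach 1 FPKM, where BMP2, ID2 and SMAD6 were left out and the median log2 change of the members was 0.34 in place of 1.79. It was 4 at a fold threshold of 4, where ID1 was lost, and 4 with 1 added to each FPKM, where SMAD6 was lost. It was 4 when either group had to reach 5 FPKM, and likewise with a mean FPKM of at least 1, the last filter and that on both groups being chosen after seeing the data. SMAD6 was left out at 5 FPKM and by the mean. Without a filter it was 6, the added gene being BMP7, which was listed at 0 in siNT, and 18.6% of the 20409 genes were then called higher. No member was lower under any of them. The log2 change ranged from 2.18 to 3.16 for BMP2, 1.19 to 1.27 for ID1, 3.80 to 5.09 for ID2, 2.31 to 2.44 for ID3 and 0.99 to 3.39 for SMAD6.

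The counts over the pathway lists, 7 higher and 6 lower, depended more on the settings. They were 13 and 15 at a fold threshold of 1.5, 4 and 0 at a fold threshold of 4, 16 and 14 without a filter, and 2 and 3 when either group had to reach 5 FPKM. With 1 added to each FPKM, 2 genes were lower, and when both groups had to reach 1 FPKM, 2 were higher. The calls lost with 1 added were RGMA, PCSK6, SKIL, RUNX2, LEF1 and OSR1. Centring on the median of all genes lost PCSK6 and added PMEPA1. Over all genes, 1056 higher and 984 lower became 2012 and 2319 at a fold threshold of 1.5, 436 and 239 at 4, and 3797 and 2191 without a filter, and the higher ones became 681 with 1 added and 552 both with at least 5 FPKM in either group and with at least 1 FPKM in both. The number of members holding each planned motif was the same in a 300-base window. No sample could be left out, because the deposited values are pooled. No paired analysis was possible because the values are 1 per group and the result comes from no test.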

Other observations

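The TGF-beta and activin branch, which shares SMAD4 and SMAD7 with the BMP branch, was examined as a companion list. Of its 11 genes, 7 reached an FPKM of 1 and none was past 2-fold, beside 7.75% of all genes higher and 7.22% lower. TGFBR2, the type II TGF-beta receptor, was the most abundant, at 60.4 in siNT and 92.3 in siPAX9, a log2 change of 0.61. TGFB1 was 28.1 and 17.7 (-0.66), and SMAD3 was 15.8 and 10.5 (-0.59). INHBA, the activin A subunit, stayed below 1 but was 0.0391 in siNT and 0.396 in siPAX9, while TGFB3 was 0.553 and 0.327.

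Of 6 genes known to respond to TGF-beta, 0 were at least 2-fold higher and 1 was lower, beside 7.75% and 7.22% of all genes. The lower gene was COL4A1, a basement membrane collagen, at 2.16 against 7.73 (-1.84). PMEPA1 was 4.53 and 8.67 (0.94) and TGFBI was 154.2 and 242 (0.65), both higher but within 2-fold. SNAI2 was 37.1 and 26.0 (-0.51).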
